A study of Mus musculus with 4 samples.

Results

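The genes described here are the receptors for R-spondins and the feedback and transcription factor genes of the Wnt pathway, in mouse liver cells that had been turned into progenitor-like cells in culture. They were chosen by name: Lgr4, Lgr5, Lgr6, Rnf43, Znrf3, Axin2, Nkd1, Lef1, Tcf7 and Tcf7l2. These are 10 of the 21878 gene rows in each table, and all 10 were present in all 4 tables. The study compared progenitor-like cells grown from hepatocytes (HepLPC, n = 2 libraries) with progenitor-like cells grown from non-parenchymal liver cells (NPC_LPC, n = 2 libraries). Per the labels, all mice were C57BL/6 and 6 to 8 weeks old, and the protocol gives an age of 8 weeks. The protocol lists lineage-tracing mice: tdTomato animals that received AAV8-TBG-Cre for the hepatocytes, and AlbCreERT/R26GFP animals for the non-parenchymal cells. AAV8-TBG-Cre is a virus whose promoter directs Cre recombinase to hepatocytes, and AlbCreERT places an inducible Cre under the albumin promoter. On that reading the mouse line and the virus go with the cell of origin, and their effects cannot be told apart from it. Both groups were cultured in transition and expansion media before RNA was taken. For HepLPC the cell type label also names the non-parenchymal fraction, and the groups were therefore read from titles and protocol.

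Wnt ligands bind Frizzled and LRP receptors and keep beta-catenin from being destroyed, so that it can act with TCF/LEF factors on target genes in the nucleus. RNF43 and ZNRF3 are membrane ubiquitin ligases that remove Frizzled receptors from the cell surface, and R-spondins bound to LGR4, LGR5 or LGR6 block them and so strengthen the Wnt signal. In the liver this signal patterns the hepatocytes around the central vein, and Lgr5 is widely used as a marker of proliferating liver progenitor cells in culture.

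The promoters are shown for 3 genes that represent different outcomes below: Lgr6, the receptor with the largest difference between the groups, Axin2, a target gene with similar levels in all libraries, and Lef1, the member with the lowest counts above 0. Each line gives the 250 bases before an annotated start of transcription, 5′ to 3′ on the gene's strand, from RefSeq on GRCm38.p6. Capitals mark the core of the TCF/LEF recognition motif, CTTTGA, read on either strand (TCAAAG). The windows lie at chr1:135105277-135105526 (minus strand), chr11:108920099-108920348 (plus strand) and chr3:131156044-131156293 (plus strand). The last precedes an internal start within the Lef1 gene. The Axin2 window precedes a start at 108920349, while the gene begins at 108917828 in RefSeq, so this window too lies inside the RefSeq gene. For Lgr6, on the minus strand, the RefSeq gene reaches 135105374, so part of its window lies inside the gene as well.
Lgr6: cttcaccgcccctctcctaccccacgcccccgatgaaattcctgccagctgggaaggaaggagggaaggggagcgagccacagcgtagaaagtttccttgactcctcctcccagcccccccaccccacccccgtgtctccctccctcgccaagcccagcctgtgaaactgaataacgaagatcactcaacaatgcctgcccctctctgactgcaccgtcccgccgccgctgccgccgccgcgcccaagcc
Axin2: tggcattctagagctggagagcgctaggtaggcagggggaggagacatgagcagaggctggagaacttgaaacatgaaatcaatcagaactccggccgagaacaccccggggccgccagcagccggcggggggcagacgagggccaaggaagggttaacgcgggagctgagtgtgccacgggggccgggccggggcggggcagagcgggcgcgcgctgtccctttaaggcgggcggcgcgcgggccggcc
Lef1: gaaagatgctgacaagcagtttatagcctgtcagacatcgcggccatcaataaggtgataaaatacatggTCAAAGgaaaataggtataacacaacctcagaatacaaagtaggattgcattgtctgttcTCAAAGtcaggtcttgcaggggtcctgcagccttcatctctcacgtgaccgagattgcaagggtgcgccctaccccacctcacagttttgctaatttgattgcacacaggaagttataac
The Lef1 window is shown because it holds the motif: it was chosen for that out of the 4 annotated starts of Lef1, and was the only one of the 14 windows of members in the table with a match. It held 2 matches, 180 and 120 bases before the start, both on the opposite strand. The motif was in 13.8% of all 32851 such windows of the mouse table. The windows of Lgr6 and Axin2 did not contain these letters, which says nothing about binding elsewhere. Among the other members, Lgr4, Rnf43, Nkd1, Tcf7, Tcf7l2 and the other annotated starts of Lef1 had no match to CTTTGA in their windows. Lgr5 and Znrf3 were not matched in the table. The letters CTTTGTT, searched as well, were found 1 time, before start 2 of Tcf7l2, and in 5.03% of all windows. The Nkd1 window precedes a start at 88527633, inside the gene, which begins at 88521342 in RefSeq. Both Tcf7 windows and those before start 2 of Rnf43, start 3 of Lef1 and start 2 of Tcf7l2 also lie inside their RefSeq genes.

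Total counts per library ran from 17575998 to 20625957. Levels are given as CPM, that is, counts relative to the library total after its correction by a TMM factor (0.98 to 1.02), and 3 counts correspond to 0.149 to 0.169 CPM. Markers of mature hepatocytes were nearly absent: the 8 marker genes summed to 2.65 to 9.11 CPM in HepLPC and to 0.198 to 0.329 CPM in NPC_LPC, with Tat and Cyp3a11 at 0 counts in all libraries. Bile duct markers summed to 2215 to 4774 CPM in HepLPC and 4785 to 9506 CPM in NPC_LPC, with Spp1 as the largest part in every library, while Epcam stayed at or below 1.75 CPM. These markers did not move one way. Spp1, which encodes osteopontin, was at 3024 and 904 CPM in the HepLPC pair and 8939 and 4201 CPM in the NPC_LPC pair. The duct keratin gene Krt19 was at 1434 and 885 CPM in the HepLPC pair and 111 and 275 CPM in the NPC_LPC pair, and Krt7 was at 103 and 165 CPM against 1.43 and 17.2 CPM, so both were higher in HepLPC without overlap (edgeR adjusted p = 0.0841 and 0.132). Stellate and myofibroblast markers summed to 14.1 and 8.62 CPM in the HepLPC pair and 5.38 and 16.7 CPM in the NPC_LPC pair. Lrat, Lum and Hand2 were at 0 in all libraries. The stellate and myofibroblast markers did not move one way either. Reln was at 8.77 and 5.41 CPM in the HepLPC pair and 0.494 and 1.14 CPM in the NPC_LPC pair. Col1a1 was at 4.05 and 1.80 CPM in the HepLPC pair and 2.74 and 11.8 CPM in the NPC_LPC pair. Acta2, at 2.28 CPM, and Col3a1, at 1.04 CPM, had counts in NPC_LPC replicate 2 only. Dcn was highest in NPC_LPC replicate 1, at 1.43 CPM. Endothelial markers summed to 7.44 and 5.97 CPM in the HepLPC pair and 2.30 and 3.61 CPM in the NPC_LPC pair, without overlap. Most of this was Kdr (edgeR adjusted p = 0.232), with Clec4g and Wnt9b at 0. Leukocyte and Kupffer markers summed to 15.3 to 82.2 CPM, most of it Cd68, with Cd3e and Clec4f at 0. Mesothelial markers summed to 201 and 788 CPM in the HepLPC pair and 579 and 232 CPM in the NPC_LPC pair, nearly all of it Msln, with overlapping groups. The part of other cell types in the results below was not tested. In bulk RNA, fewer cells that express a gene and less RNA per cell cannot be told apart.

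**Figure D1:**
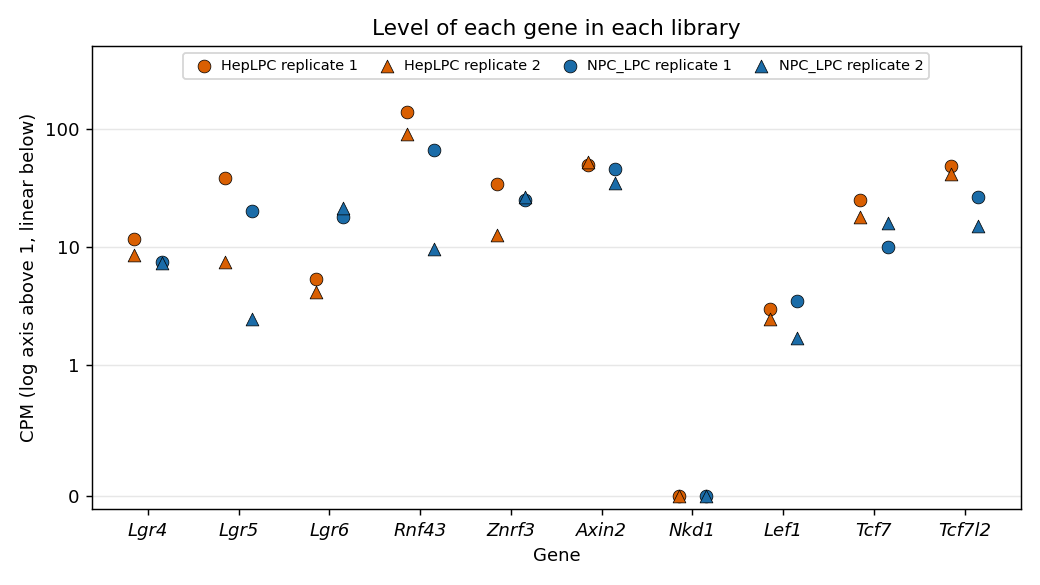
Level of each of the 10 genes in each library, in CPM (vertical axis, logarithmic above 1 and linear below). Circles are replicate 1 and triangles replicate 2 of HepLPC (orange) and NPC_LPC (blue). Lgr6 is higher in both NPC_LPC libraries than in either HepLPC library, Lgr5 is higher in replicate 1 than in replicate 2 of each group, and Nkd1 is at 0 in all 4 libraries.

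The 3 receptors of the R-spondins had different patterns over the libraries. Lgr6 was at 5.28 and 4.17 CPM in the HepLPC pair and 17.9 and 21.1 CPM in the NPC_LPC pair (here and below, replicate 1 is given before replicate 2). Both NPC_LPC libraries were above both HepLPC libraries, and replicates of a group were close. The means were 4.72 ± 0.783 (SD, n = 2) and 19.5 ± 2.27 CPM (SD, n = 2), 4.13-fold higher in NPC_LPC. The log2 fold change of HepLPC over NPC_LPC was -2.04 (SE 0.37, 95% interval -2.96 to -1.13). The edgeR adjusted p was 0.0763, which misses the threshold of 0.05, and the unadjusted p was 0.00173. DESeq2 called Lgr6 lower in HepLPC (adjusted p = 1.07e-04), and edgeR did so when no filter was put on low counts (adjusted p = 0.0348). DESeq2 called 11.6% of its tested genes and the unfiltered edgeR fit 3.74%. Over all 15 alternatives the adjusted p for Lgr6 ran from 1.07e-04 to 0.275, and the log2 fold change from -2.21 to -1.04. The value of -1.04 came from log2(FPKM + 1), a scale that understates the change of low genes, and log2(FPKM + 0.1) gave -1.80. The gene lies on chromosome 1, 134983301 to 135105276 (GENCODE M21, GRCm38). The bile duct marker sum was also higher in both NPC_LPC libraries than in either HepLPC library (4774 and 2215 CPM in HepLPC, 9506 and 4785 CPM in NPC_LPC), though by little between HepLPC replicate 1 and NPC_LPC replicate 2, and the hepatocyte marker sum was lower. Among the duct markers Spp1 had this order of the groups, while Krt19 and Krt7 had the opposite one. Their part in the Lgr6 difference was not tested.

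Lgr5 differed more between the replicates of a group than between the groups. It was at 38.4 CPM in HepLPC replicate 1 and 7.38 CPM in HepLPC replicate 2, and at 19.97 CPM in NPC_LPC replicate 1 and 2.43 CPM in NPC_LPC replicate 2. Replicate 1 was the higher in each group, 5.21-fold in HepLPC and 8.23-fold in NPC_LPC, and the groups overlapped. The log2 fold change was 1.03 (SE 1.11, 95% interval -1.73 to 3.80, edgeR adjusted p = 0.617). Without HepLPC replicate 1 it changed sign to -0.59, and without NPC_LPC replicate 1 it was 3.25. No alternative called it (adjusted p = 0.194 to 0.973). The bile duct markers summed to 4774 and 2215 CPM in the HepLPC pair and 9506 and 4785 CPM in the NPC_LPC pair, so the sum too was higher in replicate 1 of each group. Spp1 had the same order of replicates, while Krt19 was higher in replicate 1 of HepLPC and in replicate 2 of NPC_LPC. Their part in the level of Lgr5 was not tested. Lgr5 lies on chromosome 10, 115450311 to 115587780.

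Lgr4, the most widely expressed of these receptors across tissues, varied the least of the 3. It was at 11.6 and 8.45 CPM in the HepLPC pair and 7.35 and 7.28 CPM in the NPC_LPC pair. HepLPC was the higher in both libraries, by a log2 fold change of 0.46 (SE 0.40, 95% interval -0.52 to 1.43, edgeR adjusted p = 0.532). The interval includes both equal levels and a level 2 times as high in HepLPC. The gene is on chromosome 2, 109917647 to 110014257.

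Levels of different genes were compared on the deposited FPKM, which is per length. In HepLPC, Lgr5 held 72.0% of the summed FPKM of the 3 receptors in replicate 1 and 39.2% in replicate 2, and Lgr6 held 4.76% and 10.9%. In NPC_LPC, Lgr5 held 55.1% in replicate 1 and 12.3% in replicate 2, and Lgr6 held 23.3% and 49.4%. The share of Lgr6 was thus higher in both NPC_LPC libraries than in either HepLPC library, while the share of Lgr5 overlapped between the groups. The share of Lgr4 ran from 21.6% to 49.9% over the 4 libraries. On counts per kilobase of annotated exon, the share of Lgr6 was 11.9% and 22.02% in HepLPC and 44.97% and 67.6% in NPC_LPC, the same order of the groups. The largest receptor gene of NPC_LPC replicate 1 was Lgr5 on FPKM and Lgr6 on this second scale.

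**Figure D2:**
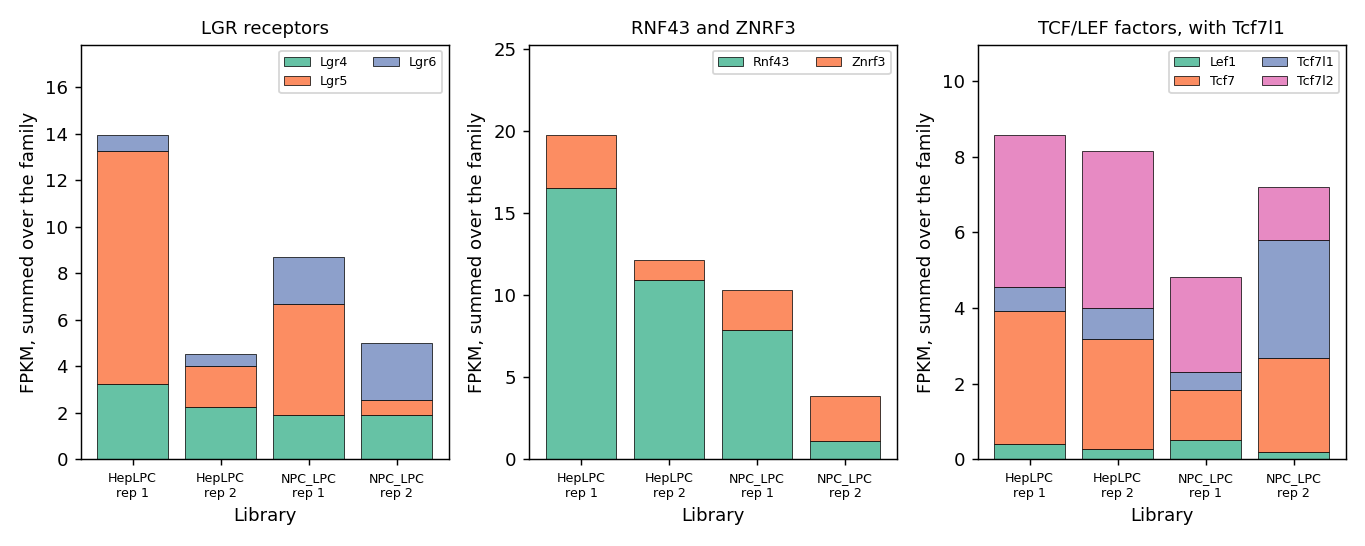
FPKM of each gene stacked within its family, for the 4 libraries: the 3 LGR receptors, the ubiquitin ligases Rnf43 and Znrf3, and the TCF/LEF genes with Tcf7l1. Lgr6 makes up more of the receptor sum in NPC_LPC than in HepLPC, Znrf3 exceeds Rnf43 only in NPC_LPC replicate 2, and Tcf7l1 is the largest TCF/LEF gene only there.

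Rnf43 and Znrf3 encode the ligases that R-spondins block, and both are target genes of the pathway that they restrain. Rnf43 was at 138 and 89.1 CPM in the HepLPC pair and 66.3 and 9.55 CPM in the NPC_LPC pair. Both HepLPC libraries were above both NPC_LPC libraries, but NPC_LPC replicate 1 was 6.94-fold above NPC_LPC replicate 2. The log2 fold change was 1.58 (SE 0.84, 95% interval -0.50 to 3.66, edgeR adjusted p = 0.328), from means of 114 ± 34.5 and 37.9 ± 40.1 CPM (SD, n = 2 each). Without NPC_LPC replicate 1 it was 3.59 and passed the test (edgeR adjusted p = 0.0145), in a fit that called 2.95% of its genes and took the lone NPC_LPC library to vary like the HepLPC group. Without NPC_LPC replicate 2 it was 0.77 (edgeR adjusted p = 0.41). On FPKM Rnf43 was the highest of the 10 genes in 3 libraries, at 16.5, 10.9 and 7.89, and was at 1.12 in NPC_LPC replicate 2.

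Znrf3 was at 33.7 and 12.5 CPM in the HepLPC pair and 24.6 and 26.4 CPM in the NPC_LPC pair. The NPC_LPC values lay between those of HepLPC, and the log2 fold change was -0.14 (SE 0.50, 95% interval -1.37 to 1.09, edgeR adjusted p = 0.895). It changed sign to 0.40 without HepLPC replicate 2. Rnf43 held 83.7% and 89.8% of the summed FPKM of the ligase pair in HepLPC, against 76.6% and 29.3% in NPC_LPC replicates 1 and 2. The order of the ligases was therefore reversed in 1 library only, NPC_LPC replicate 2. Rnf43 and Znrf3 lie on chromosome 11, at 87662722 to 87735539 and 5276324 to 5444847, as do Axin2 and Tcf7. The median log2 fold change of the 973 tested genes of that chromosome was 0.05.

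Axin2 and Nkd1 are intracellular brakes on the pathway. Axin2, a scaffold of the complex that destroys beta-catenin and a standard readout of Wnt signalling, was at 48.7 and 52.3 CPM in the HepLPC pair and 45.4 and 34.3 CPM in the NPC_LPC pair. The HepLPC values were the higher, with means of 50.5 ± 2.56 and 39.9 ± 7.86 CPM (SD, n = 2 each). The log2 fold change was 0.34 (SE 0.27, 95% interval -0.32 to 1.0, edgeR adjusted p = 0.491), an interval that includes equal levels. No alternative called Axin2. Its exons share 209 bases with an antisense gene, Gm11670, and the strand setting of the counting is not given in the sources used here. Axin2 lies at 108920349 to 108950783 on chromosome 11.

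Nkd1, which binds Dishevelled and dampens the signal, had 0 counts and was listed at an FPKM of 0 in all 4 libraries. A count of 0 allows up to 3 counts, or 0.149 to 0.169 CPM per library, for counting error only. Nkd1 has a row in each table, but whether the annotation used for counting could assign reads to it is not known, so the 0 and this limit may not describe its expression. Its relative Nkd2 was at 1.39 and 0.169 CPM in the HepLPC pair and 0.603 and 1.04 CPM in the NPC_LPC pair. Nkd2 was thus low but detected in every library, with overlapping groups (log2 fold change -0.08, edgeR adjusted p = 0.976). Nkd1 lies on chromosome 8, 88521354 to 88594884.

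The TCF/LEF genes encode the DNA-binding partners of beta-catenin. Tcf7l2, the main member of the family in liver and intestine, was at 48.2 and 41.3 CPM in the HepLPC pair and 26.5 and 15.1 CPM in the NPC_LPC pair. Both HepLPC libraries were above both NPC_LPC libraries, 2.15-fold by the means of 44.8 ± 4.85 and 20.8 ± 8.06 CPM (SD, n = 2 each). The log2 fold change was 1.11 (SE 0.36, 95% interval 0.22 to 1.99). The edgeR unadjusted p was 0.0225 and the adjusted p 0.167, and none of the 15 alternatives called it (adjusted p = 0.0642 to 0.463). Tcf7l2 is on chromosome 19, 55741820 to 55933654. The 430 tested genes of that chromosome had a median log2 fold change of 0.25, the highest among the chromosomes of the members. The lowest was -0.07, on chromosome 1. The part of chromosome position in the Tcf7l2 difference was not tested.

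Tcf7 was at 24.7 and 17.8 CPM in the HepLPC pair and 9.87 and 15.9 CPM in the NPC_LPC pair. HepLPC replicate 2 and NPC_LPC replicate 2 were close, and the log2 fold change was 0.72 (SE 0.39, 95% interval -0.25 to 1.69, edgeR adjusted p = 0.34). Lef1 was the lowest of the members above 0, at 2.94 and 2.42 CPM in the HepLPC pair and 3.46 and 1.68 CPM in the NPC_LPC pair. The groups overlapped (log2 fold change 0.06, SE 0.63, 95% interval -1.51 to 1.64, edgeR adjusted p = 0.967), and the sign changed to -0.07 without HepLPC replicate 1 and to -0.36 without NPC_LPC replicate 2. Its exons share 1208 bases with an antisense gene, Gm43352. Lef1 and Tcf7 lie at 131110471 to 131224356 on chromosome 3 and at 52252371 to 52283014 on chromosome 11.

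The make-up of the family was similar in 3 libraries and different in NPC_LPC replicate 2. With Tcf7l1, which mostly represses target genes, added to the family, Tcf7l2 held 46.9% and 51.0% of the summed FPKM in HepLPC and 52.1% in NPC_LPC replicate 1, but 19.5% in NPC_LPC replicate 2. Tcf7l1 held 7.38%, 10.2% and 9.98% in the first 3 of these libraries and 43.2% in NPC_LPC replicate 2. Tcf7l1 was at 4.0 and 4.73 CPM in the HepLPC pair and 3.07 and 19.7 CPM in the NPC_LPC pair (edgeR adjusted p = 0.393). Lef1 held at most 10.7% in any library. On counts per kilobase of annotated exon, Tcf7 held the most in all 4 libraries, 46.7% to 57.9%, and Tcf7l1 held 38.6% in NPC_LPC replicate 2 against at most 9.84% in the other libraries.

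Of the 10 genes, 9 had counts high enough for the edgeR test, and 0 passed it over all genes, where 0.43% of the 12332 tested genes passed, 0.227% higher and 0.203% lower in HepLPC. At an unadjusted p under 0.05 there were 2 members, Tcf7l2 and Lgr6, against 21.9% of all tested genes, and DESeq2 called 1, Lgr6. The groups did not overlap for 6 of the 9, with HepLPC above in 5 and below in 1, against 56.4% of all tested genes (27.9% above and 28.6% below), so this share is near that of all genes. Fitted fold changes were above 0 for 7 and below 0 for 2, with a median log2 fold change of 0.46, where that of all tested genes was -0.00303. Of all 12332 tested genes, 6144 were above 0 and 6188 below.

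**Figure D3:**
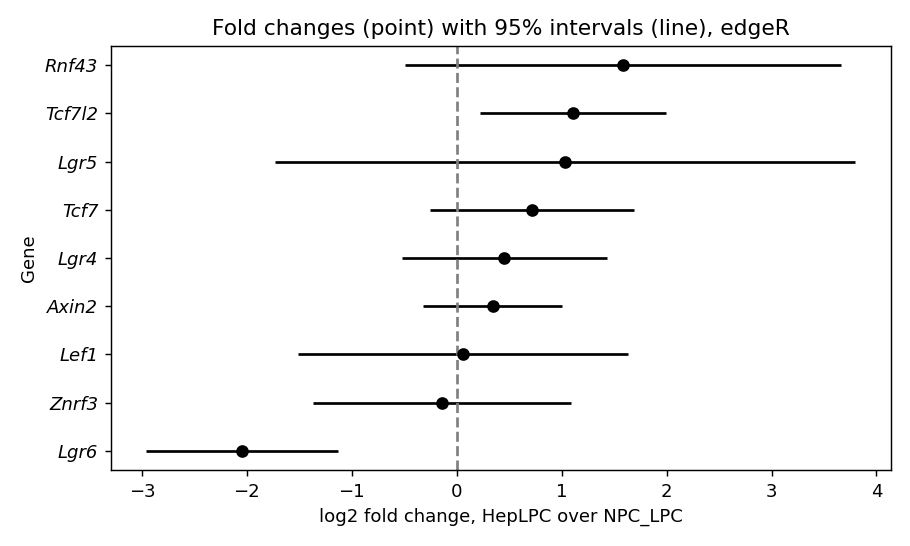
Log2 fold change of HepLPC over NPC_LPC for the 9 tested genes (points) with unadjusted 95% intervals from the edgeR fit (lines). The intervals of Lgr6 and Tcf7l2 leave out 0, those of the other 7 include it, and the widest belongs to Lgr5.

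**Figure D4:**
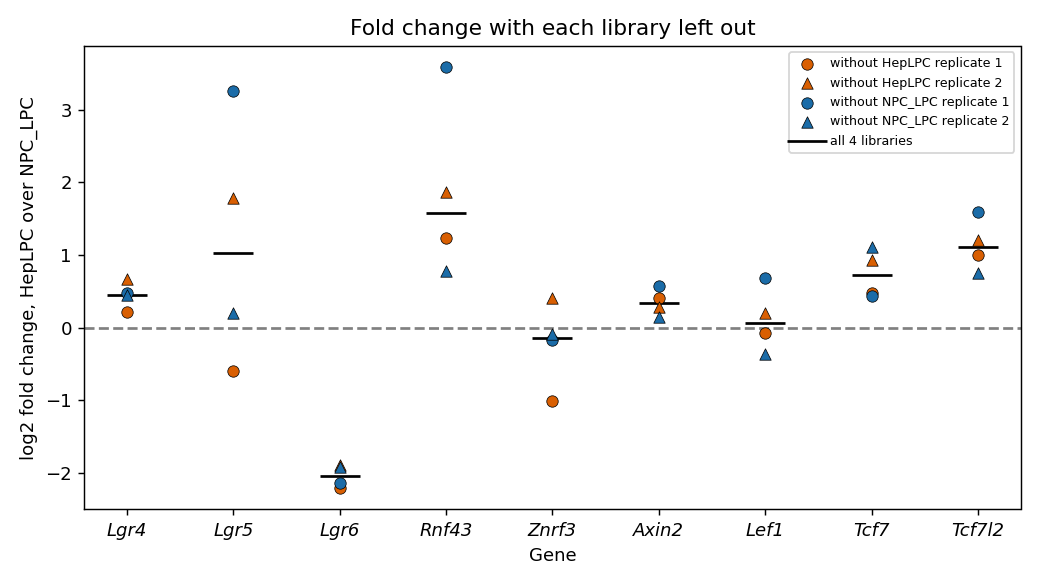
Log2 fold change of HepLPC over NPC_LPC with each library left out in turn (symbols) and with all 4 libraries (black bars), for the 9 tested genes. Lgr6 stays between -2.21 and -1.88, while Lgr5 runs from -0.59 to 3.25 and Rnf43 from 0.77 to 3.59.

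Among the R-spondins, the ligands of these receptors, Rspo3 was the only one above 3 counts in any library. Rspo3 was at 0.833 and 0.901 CPM in the HepLPC pair and 5.65 and 8.32 CPM in the NPC_LPC pair. Both NPC_LPC libraries were above both HepLPC libraries, as for Lgr6. The log2 fold change was -3.0 (SE 0.56, 95% interval -4.39 to -1.61) with an edgeR adjusted p of 0.0811, and DESeq2 called it lower in HepLPC (adjusted p = 2.71e-04). Rspo1 and Rspo4 had 0 counts in all libraries.

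The other genes of the pathway had no member past the edgeR test in any list. Of 31 genes of the beta-catenin core and its cofactors, 30 were tested. Of these, 23 had a fold change below 0, against 6188 of all 12332 tested genes, and the median of the list was -0.23 on the log2 scale. Its most abundant members were Ctnnb1, which encodes beta-catenin, at 719 ± 21.5 CPM in the HepLPC and 939 ± 74.5 CPM in the NPC_LPC libraries (SD, n = 2 each), and the tankyrase gene Tnks2, at 376 ± 53.9 and 389 ± 113 CPM. DESeq2 called 1 higher in HepLPC, the corepressor gene Tle4 (adjusted p = 0.0359), and 2 lower, the corepressor gene Tle3 (0.0231) and Amer1 (0.0267), a partner of APC. These 3, and the other genes given with a DESeq2 call below, are named because that tool called them.

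Of 20 other genes known as Wnt targets, 13 were tested, with a median log2 fold change of 0.65, 7 above 0 and 6 below. The cell cycle gene Ccnd1 was at 2790 and 2416 CPM in the HepLPC pair and 1528 and 1440 CPM in the NPC_LPC pair (edgeR adjusted p = 0.175). All 8 proliferation markers also had a fold change above 0, against 6144 of all 12332 tested genes. HepLPC was above NPC_LPC without overlap in 5 of the 8, against 27.9% of all tested genes. None passed the edgeR test, and DESeq2 called 1, Ccnb1. At an unadjusted edgeR p under 0.05, 4 were higher in HepLPC, against 1287 of all 12332 tested genes. The part of these markers in the level of Ccnd1 was not tested. The adhesion receptor gene Cd44 went the other way, at 446 and 551 CPM in the HepLPC pair and 1688 and 1671.5 CPM in the NPC_LPC pair (edgeR adjusted p = 0.0656). Targets thus differed in sign, with groups that do not overlap for both. DESeq2 called Ccnd1 (adjusted p = 0.0311) and the transcription factor gene Tbx3 (3.72e-05) higher and Cd44 (7.11e-08) lower in HepLPC. Tbx3 was at 10.6 and 10.98 CPM in the HepLPC pair and 1.54 and 0.495 CPM in the NPC_LPC pair.

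Of 29 Wnt ligand and Frizzled genes, 16 were tested, with a median log2 fold change of 0.19. The most abundant were the receptor genes Fzd5, at 50.8 ± 11.6 CPM in the HepLPC and 48.9 ± 9.33 CPM in the NPC_LPC libraries, and Fzd6, at 51.4 ± 15.9 and 46.8 ± 9.59 CPM (SD, n = 2 each). DESeq2 called Fzd7 (adjusted p = 7.71e-04) and Wnt7a (0.0114) higher and Wnt5a (0.0138) and Fzd3 (0.0486) lower in HepLPC. Of 11 pericentral liver genes that depend on Wnt signalling, 5 were tested, and Cyp2e1 and Cyp7a1 had 0 counts. The glutamine synthetase gene Glul was at 349 and 151 CPM in the HepLPC pair and 200 and 88.0 CPM in the NPC_LPC pair, higher in replicate 1 of each group as Lgr5 was. Oat, which encodes ornithine aminotransferase, was at 66.1 and 47.8 CPM in the HepLPC pair and 71.5 and 81.8 CPM in the NPC_LPC pair. Neither Oat nor the other tested pericentral genes shared the replicate order of Glul in both groups. DESeq2 called Lect2 (adjusted p = 2.80e-04) and the amino acid transporter gene Slc1a4 (0.023) higher and the glutamate transporter gene Slc1a2 (0.00329) lower in HepLPC. DESeq2 called 5.35% of its tested genes higher and 6.24% lower.

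**Figure D5:**
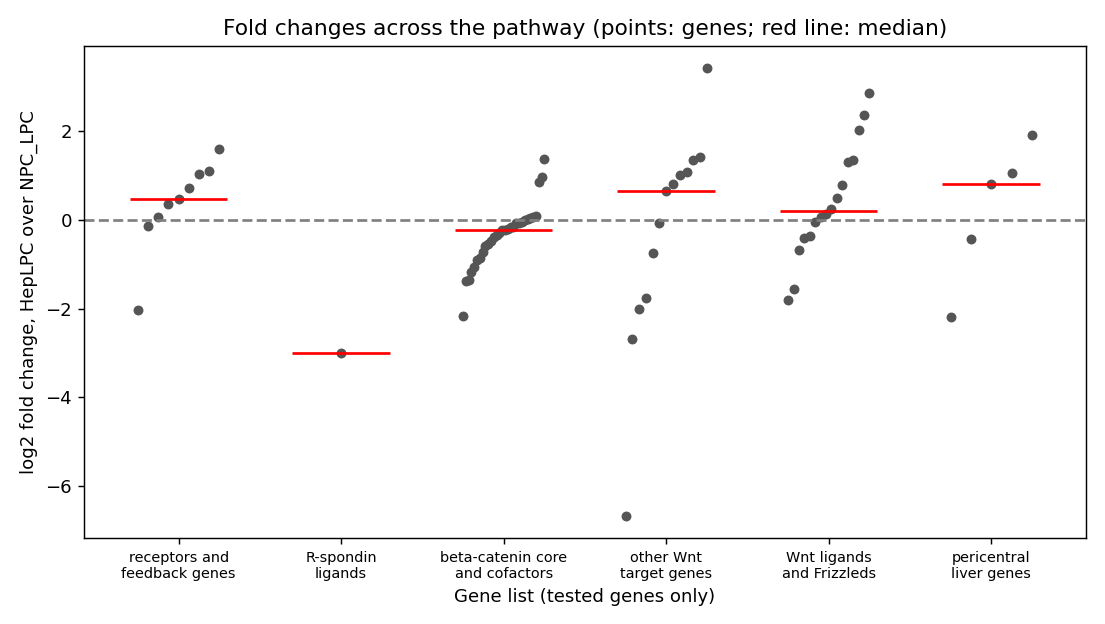
Log2 fold change of HepLPC over NPC_LPC (vertical axis) of each tested gene (points) in the 6 gene lists, with the median in red. The list medians run from -3.0 for the single tested R-spondin gene to 0.80 for the pericentral genes; the lowest point is Mmp7, at 0 counts in HepLPC and therefore at least 4.06-fold lower in that group, with 3 counts per library as the floor.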

How the data were processed

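RNA was sequenced from 2 HepLPC and 2 NPC_LPC libraries, each with a table of its own. The authors deposited read counts per gene symbol and FPKM, per the file headers. Per the labels' protocols, polyadenylated RNA was made into stranded paired-end libraries. The submitters' processing notes name HISAT2, Trimmomatic, HTSeq, Cufflinks and DESeq, with mm10 as the build. Tool versions, gene annotation and strand setting: not given in the sources used here.

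Groups and replicate numbers came from titles. Counts of the whole table were tested in edgeR 4.0.16 (R 4.3.3) by quasi-likelihood after TMM scaling and filterByExpr, with group as the only term. P-values are two-sided, Benjamini-Hochberg adjusted over the 12332 genes tested, with 0.05 as the threshold. Standard errors and 95% intervals come from the F statistic, and the intervals are not adjusted. Whether replicates were separate mice or cultures is not stated, and p-values measure only the spread between these libraries. An exact permutation test of 2 against 2 cannot go below p = 0.333. Floors of 3 counts cover counting error only, since PCR copies are not independent molecules.

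Alternatives were other scaling factors and filters, DESeq2 1.42.0, limma-voom (limma 3.58.1), the replicate number as a block, each library left out, and limma on log2(FPKM + 1) or log2(FPKM + 0.1). All 10 members are described, with the 2 most abundant genes of each other list. The members and lists were chosen with earlier results of these data known. Gene positions and exon lengths came from GENCODE M21 and promoters from RefSeq, both on GRCm38, the assembly called mm10.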

Additional observations from a re-analysis of the deposited data

How the results depend on the processing

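Of 133 alternative values for the 9 tested genes, 126 kept the direction and the side of the threshold. Lgr6 crossed the threshold without a filter on low counts, at a log2 fold change of -2.05, and with DESeq2, at -2.04, so 1 member was called lower in HepLPC in each. With each library left out, Lgr5 ran from -0.59 to 3.25, Znrf3 from -1.01 to 0.40, Lef1 from -0.36 to 0.69 and Rnf43 from 0.77 to 3.59, and the number of members called higher in HepLPC from 0 to 1. Of those, Lgr5 was below 0 without HepLPC replicate 1, Znrf3 above 0 without HepLPC replicate 2, Lef1 below 0 without HepLPC replicate 1 (-0.07) or NPC_LPC replicate 2 (-0.36), and Rnf43 was called without NPC_LPC replicate 1. The cause was not tested. With the replicate number as a block, 0 members were called and 136 genes in all, against 53 without it; Lgr6 was at -2.05 (edgeR adjusted p = 0.118). Lgr5 was at 1.26 with the block (SE 0.43, edgeR adjusted p = 0.213). Deviations of same-numbered libraries had a correlation of -0.0457 across all tested genes. A value over all genes cannot show whether the numbers mark a shared animal, day or batch for some genes. The main fit was left unpaired because the labels do not say that the numbers pair the samples. Over all genes the calls numbered 1521 with DESeq2, 593 without a filter, 5 with limma-voom, 0 without either HepLPC replicate, and 377 and 107 without NPC_LPC replicates 1 and 2. On FPKM they numbered 111 with a pseudocount of 1, 69 with 0.1 and 3 with 1 and no filter. Other scaling factors moved the median of all genes by at most 0.013. For the other pathway lists 132 of 150 counts stayed at 0 and none exceeded 2. Lef1 lay under the filter of 0.5 on mean FPKM and has no value in those 2 settings.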

Other observations

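A gap between replicates like that of Lgr5, in the same direction in both groups, was rare among genes. Of 10268 tested genes with a mean of at least 5 CPM, 14 were at least 5-fold higher in replicate 1 than in replicate 2 of both groups, or 0.136%, and Lgr5 was 1 of them. A further 16 genes had such a gap in the opposite direction, among them Ifit1, Ifit3, Isg15 and Rsad2. Within 1 group, a gap of at least 5-fold either way was found in 1.31% of these 10268 genes in HepLPC and 2.31% in NPC_LPC. Whether same-numbered libraries share a factor behind these gaps was not tested. The limit of 5-fold was set after the values of Lgr5 were seen, and this is a description with no test.

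Counts and FPKM did not give the same order of levels for all members. The gene length that counts and FPKM together imply was 2.11 times the annotated exonic length for Axin2 and 2.52 times for Tcf7, and 0.393 times for Lgr5, as the median of the 4 libraries. Over 11952 tested genes the median of this ratio was 1.02, and 80% lay between 0.506 and 1.86. Levels of Axin2, Tcf7 and Lgr5 relative to other genes therefore depend on the scale. On counts per kilobase of annotated exon, Tcf7 ranked between 2 and 3 among the 10 genes, and on FPKM between 3 and 8. Rnf43 ranked 1 on both scales in 3 libraries, and Lef1 ranked 9 on both in all 4.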
